A study of Mus musculus with 8 samples.

Results

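Retinoid metabolism was followed through 9 genes in mouse livers labelled as having or lacking hepatic RORα. They are Rbp4, Lrat, Rdh16, Rdh7, Rdh11, Dhrs3, Aldh1a1, Aldh1a7 and Cyp26a1, taken by symbol from a table of 38283 genes, and all 9 were matched to a row. A wider list of 44 further retinoid genes was read beside them. The study compared RORα f/f mice, whose Rora alleles carry loxP sites around exons 4 and 5, with RORα LKO mice, which carry the same floxed alleles and an albumin-Cre transgene that acts in hepatocytes. Both genotypes were male C57BL/6 mice given a control diet (CD) or a high-fat diet (HFD, 60% of calories from fat) for 10 weeks from 8 weeks of age, to ask how the liver transcriptome depends on RORα under each diet. Polyadenylated RNA was sequenced in 8 libraries, 2 a group over 4 groups, with livers of 2 mice in every pool. For a single gene an exact permutation test of groups this small cannot reach a two-sided p under 0.333, so the tests below borrow the spread of all genes. Each library is a pool, so none of their p-values describes the spread between single mice.

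The liver takes up dietary vitamin A as retinyl esters, stores most of it in hepatic stellate cells and releases retinol to the blood. Retinol and retinaldehyde are interconverted by dehydrogenases and reductases, and retinaldehyde is oxidized irreversibly to retinoic acid, the ligand of the RAR nuclear receptors. Retinoic acid is removed by hydroxylation, largely by enzymes of the CYP26 family, and the Cyp26a1 gene is itself a classical target of retinoic acid.

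Values are FPKM, read fragments scaled for transcript length and for the size of the library. Between 10587 and 10706 genes lay above an FPKM of 1 in each library, and the 9 genes together made up 0.394 to 0.542% of the summed FPKM. The lowest share was in the second f/f library on CD, where 1 entry without a gene symbol held 18.7% of the summed FPKM. The next lowest share was 0.485%, in the second LKO library on CD. The depth of the libraries is not known from FPKM. Rora, the targeted gene, was read first, and its libraries overlapped between genotypes on HFD. Its FPKM was 8.85 and 8.59 in the f/f libraries on CD, 7.96 and 8.18 in the LKO libraries on CD, 7.56 and 7.86 in the f/f libraries on HFD, and 7.30 and 8.02 in the LKO libraries on HFD. The log2 fold change of LKO against f/f was −0.10 (SE 0.07) on CD and 0.01 (SE 0.07) on HFD, neither called by either test below, and a value for the whole gene also counts the exons that are not floxed. The genotypes are therefore those of the library labels. These read RORa WT and RORa KO, written here as f/f and LKO after the study's own names. Hepatocyte transcripts were abundant throughout, but Alb was listed at 0 in 4 of the 8 libraries, which can be a failed estimate. These were the first LKO library on CD, the second f/f library on HFD and both LKO libraries on HFD. None of the 9 genes was at 0 in any library.

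The 9 transcripts covered a wide range of levels. Rbp4 stood highest, with a mean over the 8 libraries of 2440 FPKM, and its lowest library was 2.75 times the highest library of Aldh1a1. Aldh1a1 and Rdh7 followed with means of 681 and 580.2 FPKM, and their ranges overlapped. Aldh1a7 and Dhrs3, at 82.7 and 81.1 FPKM, could not be ordered either. Rdh16 came next at 35.8 FPKM. Rdh11 at 7.59 FPKM touched the range of Lrat at 2.67 FPKM, and Lrat overlapped Cyp26a1 at 1.99 FPKM. The lowest library of Cyp26a1 held 1.27 FPKM and its highest 3.52, so that this gene and Lrat were measured close to the filter of 1 FPKM.

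**Figure D1:**
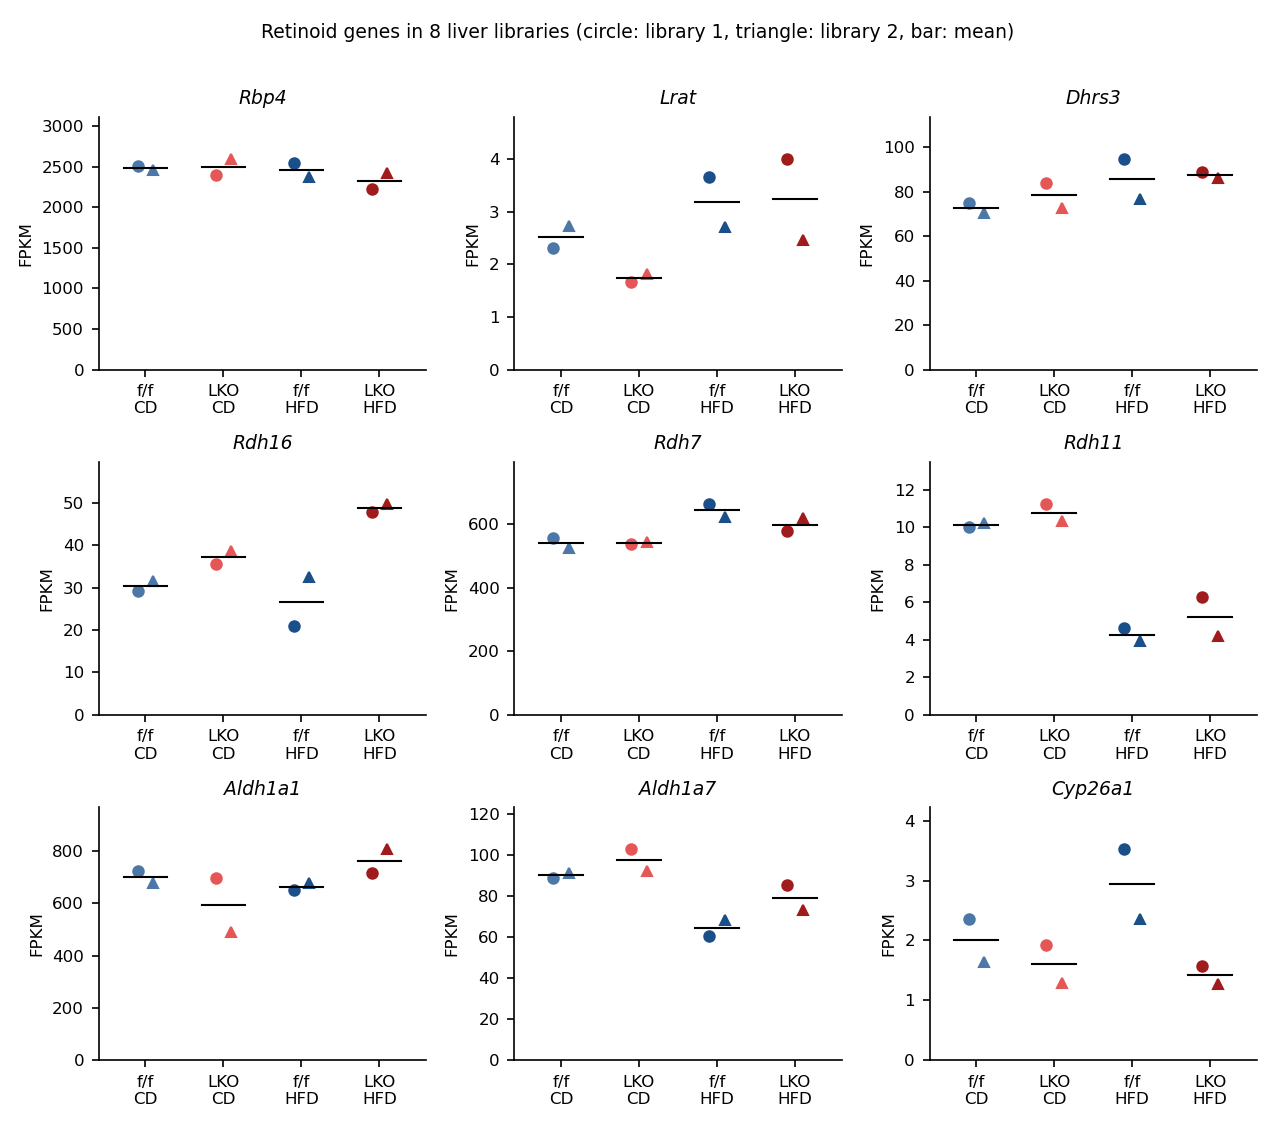
FPKM of each of the 9 genes (vertical axis, from 0, a separate scale for each gene) in the 4 groups, with 1 point for each library and a bar at the mean of 2 libraries. Rdh11 sits between 9.99 and 11.2 FPKM on CD and between 3.93 and 6.26 on HFD, and the LKO libraries of Rdh16 lie above the f/f libraries on both diets.

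Both tests below were applied to log2(FPKM + 1) after quantile normalization over the 11634 genes above 1 FPKM in at least 1 library. The first was rebuilt here, with 100 regroupings, from the permutation procedure in the study's methods, in which a T statistic and a fold change are compared with regroupings of the 8 libraries and a gene is called at a combined p of at most 0.05 and a fold of at least 1.36. This p is not adjusted for the number of genes. The regroupings mix diets and genotypes, so they hold differences between the groups as well as the spread between pools. The T statistic is built on the same fold change, so the p-values combined are not independent. The second is limma with 1 fit of the 4 groups and Benjamini-Hochberg adjustment over all genes, called at an adjusted p under 0.05. Fold changes on this scale understate those of genes with a low FPKM.

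In LKO against f/f livers on HFD, the permutation procedure called 2 of the 9 genes, Rdh16 upwards and Cyp26a1 downwards, against 4.62% of all genes. limma called 0 of 9, against 0.043% of all genes, with 3 at an unadjusted p under 0.05 (9.58% of all genes). On CD the permutation procedure called 0 of 9, against 5.45% of all genes, and limma also 0 of 9, against 0.0172%, with 0 at an unadjusted p under 0.05 (12.3% of all genes). In HFD against CD, the permutation procedure called 2 of 9 in f/f livers (8.92% of all genes) and 4 of 9 in LKO livers (9.91%). limma called 1 of 9 in each genotype, Rdh11 both times, against 1.33% of all genes in f/f and 3.02% in LKO. At an unadjusted p under 0.05 there were 4 of 9 in f/f (19.2% of all genes) and 6 of 9 in LKO livers (21.3%). Averaged over diets, limma called 0 of 9 for genotype (0.103% of all genes), with 3 of 9 at an unadjusted p under 0.05 (13.5% of all genes), and averaged over genotypes it called 3 of 9 for diet (9.89%), with 7 of 9 at an unadjusted p under 0.05 (27.9%). For the interaction of genotype and diet limma called 0 of 9 (0.0344% of all genes), with 2 of 9 at an unadjusted p under 0.05 (8.35% of all genes), so no gene was shown to respond to genotype differently on the diets. The 4 pairwise comparisons share libraries and are not independent of each other.

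The normalized values of the groups did not overlap for 5 of the 9 genes in the genotype comparison on HFD and for 3 of 9 on CD, where 42.2% and 43% of all genes were separated. They did not overlap for 7 of 9 in the diet comparison in each genotype, where 50.3% of all genes were separated in f/f and 52.9% in LKO. With 4 libraries against 4, Rdh16 was the 1 gene of the 9 separated by genotype, where 4.84% of all genes were, and 3 of 9 were separated by diet (16.7% of all genes). The median absolute log2 fold change of the 9 genes was 0.23 on HFD and 0.11 on CD for genotype, beside 0.11 and 0.12 over all genes. For diet it was 0.29 in f/f and 0.43 in LKO livers, beside 0.14 and 0.15 over all genes.

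**Figure D2:**
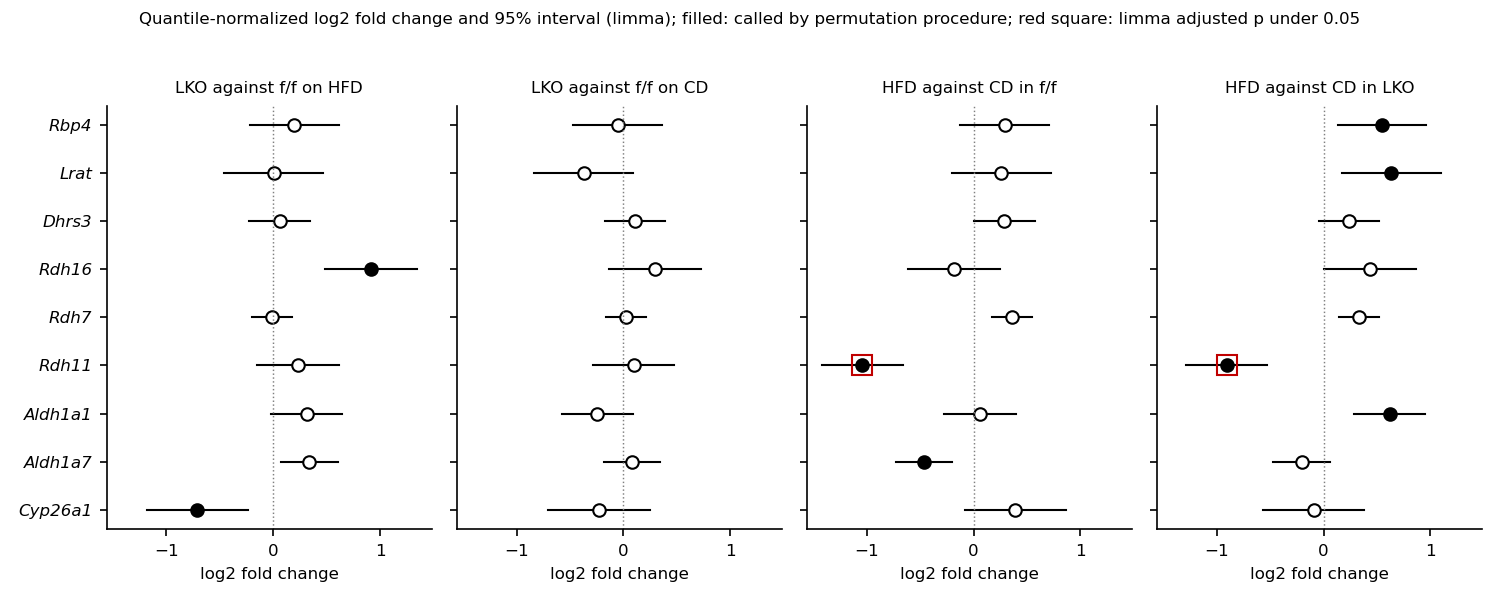
Log2 fold change (horizontal axis, quantile-normalized log2(FPKM + 1)) of the 9 genes in the 4 pairwise comparisons, with 95% intervals from limma, filled points for calls of the permutation procedure and red squares for a limma adjusted p under 0.05. Rdh11 fell by 1.04 and 0.91 in the diet comparisons, and Rdh16 at 0.91 and Cyp26a1 at −0.71 were called in the genotype comparison on HFD.

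Rbp4 encodes the plasma retinol-binding protein that carries retinol out of the liver (chr19:38116629-38125281, minus strand, GRCm38). Its FPKM was 2508 and 2464 in f/f livers on CD, 2392 and 2596 in LKO livers on CD, 2540 and 2367 in f/f livers on HFD, and 2224 and 2426 in LKO livers on HFD. The deposited values overlapped between the groups in all 4 pairwise comparisons and the group means lay between 2325 and 2494 FPKM. Whether Rbp4 was called depended on the scaling. After quantile normalization HFD against CD gave a log2 fold change of 0.55 (SE 0.17) in LKO livers, called by the permutation procedure at p = 0.0309 and not by limma (Benjamini-Hochberg adjusted p = 0.142). Without normalization the same difference was −0.10 (SE 0.09, permutation procedure p = 0.406), and with each library centred on its median it was −0.074. Without the first LKO library on CD the normalized value was 0.30. The direction also turned in f/f livers, from 0.29 to −0.020 without normalization, and in the genotype comparison on HFD, from 0.20 to −0.078.

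Quantile normalization moved the other abundant genes in the same way. Over the 118 genes with a mean of 500 to 3000 FPKM, a class that holds Aldh1a1 and Rdh7 too, the median shift it made to HFD against CD was 0.14 in f/f and 0.22 in LKO livers. For the 7119 genes up to 10 FPKM the shift was 0.02 and 0.03. Rdh11, Lrat and Cyp26a1, which belong to the latter, kept nearly the same diet differences with and without normalization.

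**Figure D3:**
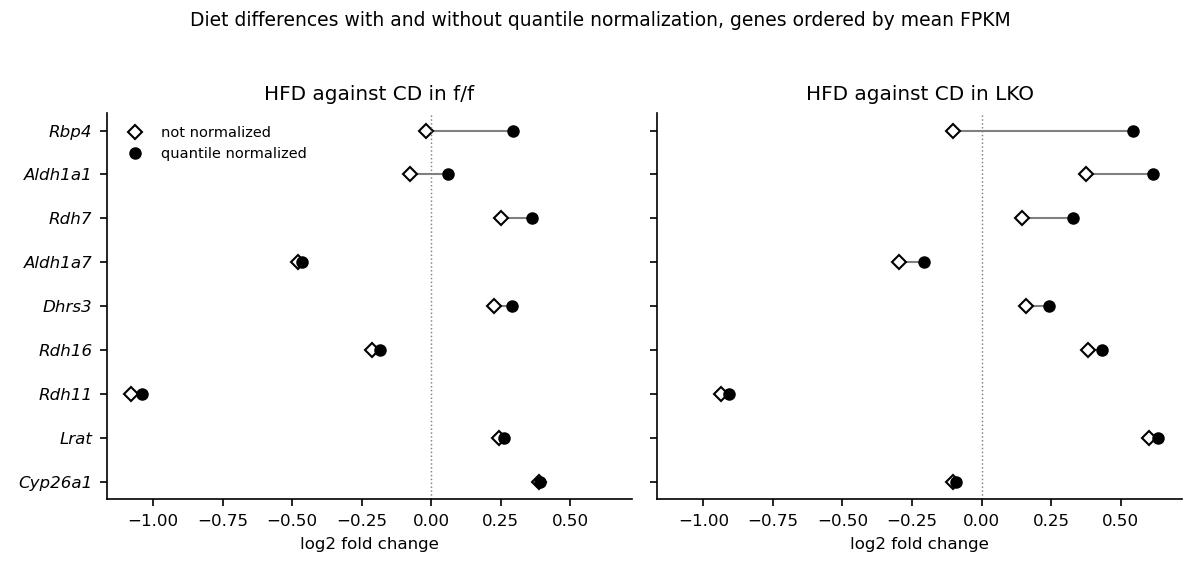
Log2 fold change of HFD against CD (horizontal axis) in f/f and LKO livers for the 9 genes, ordered from the highest to the lowest mean FPKM, without normalization (open diamonds) and with quantile normalization (filled circles). Rbp4 moves from −0.10 to 0.55 in LKO livers, while Cyp26a1 stays at −0.10 and −0.09.

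Lrat encodes the acyltransferase that esterifies retinol for storage and is expressed in the liver mainly by stellate cells (chr3:82892579-82903973, minus strand, with the antisense gene Rbm46os on the other strand; the TruSeq kit used does not mark strand). Its FPKM was 2.31 and 2.73 in f/f livers on CD, 1.67 and 1.81 in LKO livers on CD, 3.67 and 2.72 in f/f livers on HFD, and 4.00 and 2.46 in LKO livers on HFD. The LKO libraries on CD were the lowest pair, below every other library, and the genotypes overlapped on HFD. In LKO livers the mean FPKM on HFD was 1.86 times that on CD, with a log2 fold change of 0.63 (SE 0.19), called by the permutation procedure (p = 0.0177) and not by limma (Benjamini-Hochberg adjusted p = 0.129). Without the first LKO library on HFD this value was 0.36. On CD the LKO mean was 0.691 times the f/f mean, and the log2 fold change of −0.37 (SE 0.19) was called by neither test.

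Stellate cell markers were read beside Lrat. The summed FPKM of 15 stellate markers, of which 14 passed the filter and none was at 0 throughout, was 118 to 133 in f/f and 75.7 to 106 in LKO livers on CD, and 157 to 205 in f/f and 162 to 198 in LKO livers on HFD. Dcn, at 26.4 to 72.2 FPKM over the 8 libraries, and Ecm1, at 20.6 to 79.5, made up most of the sum in each library. Of the 14, limma called 6 upwards and 0 downwards for diet averaged over genotypes, beside 9.89% of all genes. For diet, the log2 fold change was positive for 9 and negative for 5 of the 14 markers in f/f livers, and for 12 and 2 in LKO livers. Per 100 FPKM of these markers, Lrat stood at 1.73 and 2.31 in f/f livers on CD, 1.58 and 2.39 in LKO livers on CD, 1.79 and 1.73 in f/f livers on HFD, and 2.03 and 1.52 in LKO livers on HFD, with all 4 groups overlapping. In whole liver, fewer cells of a type and less RNA per cell cannot be told apart.

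Rdh16 encodes a microsomal short-chain dehydrogenase that oxidizes retinol and also 3α-hydroxysteroids (chr10:127801152-127846565, plus strand). Its FPKM was 29.3 and 31.6 in f/f livers on CD, 35.7 and 38.6 in LKO livers on CD, 20.9 and 32.4 in f/f livers on HFD, and 47.8 and 49.7 in LKO livers on HFD. Every LKO library lay above every f/f library, and the pair of LKO libraries on HFD stood above all others. On HFD the LKO mean was 1.83 times the f/f mean, with a log2 fold change of 0.91 (SE 0.18, permutation procedure p = 0.00655). limma did not call it, at a Benjamini-Hochberg adjusted p of 0.228. On CD the LKO mean was 1.22 times the f/f mean, with a log2 fold change of 0.30 (SE 0.18), which neither test called.

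Averaged over diets, the log2 fold change of Rdh16 was 0.61 (SE 0.13), higher in 4 of 4 LKO libraries, with a limma Benjamini-Hochberg adjusted p of 0.14. The interaction was 0.62 (SE 0.26), with an unadjusted limma p of 0.0484 and an adjusted p of 0.594. The size of the HFD difference rested partly on the spread of the f/f libraries. Without the second f/f library on HFD it was 1.22 and limma called it at an adjusted p of 0.0163, and without the first it was 0.61 with an adjusted p of 0.209. Diet itself did not move Rdh16 past either test, at −0.18 (SE 0.18) in f/f and 0.43 (SE 0.18) in LKO livers. The summed FPKM of 7 adipocyte markers was also highest in LKO livers on HFD, at 14.6 to 16.3 against 9.93 to 11.2 in f/f livers on HFD. Of the 7, 5 were below the filter, and Fabp4 and Cfd made up nearly the whole sum. On HFD, Cfd stood at 5.45 and 5.29 FPKM in LKO and 0.49 and 1.87 in f/f livers. Fabp4 overlapped, at 10.4 and 8.88 in LKO and 8.89 and 8.94 in f/f livers. Below the filter, Cidea was higher in LKO livers, at 0.38 and 0.39 against 0 and 0.09. Adipoq was lower, at 0 in both LKO libraries against 0.38 and 0.21, and Lep was at 0 in both LKO libraries. Of 7 Kupffer cell and macrophage markers, none at 0 in any library, 7 had a positive log2 fold change on HFD (median 0.39). The permutation procedure called 1 of the 7, beside 4.62% of all genes, and limma 0, beside 0.043%. The summed FPKM of these 7 markers was 57.0 to 79.9 in LKO and 45.1 to 54.5 in f/f livers on HFD, and 59.3 to 60.8 in LKO and 61.2 to 74.1 in f/f livers on CD. The part of either marker list in the HFD differences of Rdh16 and Cyp26a1 was not tested.

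The measurement of Rdh16 is uncertain because its neighbours are near copies. On chromosome 10 the genes Rdh1, Rdh9, Rdh16, Rdh19, Rdh16f2, Rdh7 and Hsd17b6 follow each other, and the pseudogene Rdh18-ps lies inside the span of Rdh16. The coding sequence of Rdh16 shares 96.3% of its aligned bases with Rdh9, including a run of 229 identical bases, 93.8% with Rdh19, 93.1% with Rdh1, 91.5% with Rdh16f2 and 86.1% with Rdh7. The longest identical run was 49 bases with Rdh16f2 and 71 with Rdh7. Reads from identical stretches can fit several genes, and how such reads were assigned is not given in the sources used here. Rdh1, Rdh19 and Rdh18-ps were below 1 FPKM in all libraries, so among the genes compared here Rdh9 and Rdh16f2 are the expressed ones closest to Rdh16. The coding gene Rdh16f1, on the same strand and overlapping the spans of Rdh1 and Rdh9, was in neither list and was not read.

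Rdh16f2, a dehydrogenase of the same family, differed between the genotypes in the opposite direction. Its FPKM was 62.6 and 60.9 in f/f livers on CD, 45.0 and 44.6 in LKO livers on CD, 80.3 and 78.2 in f/f livers on HFD, and 48.4 and 57.6 in LKO livers on HFD. The f/f libraries were higher than the LKO libraries on each diet without overlap. The log2 fold change on HFD was −0.57 (SE 0.09), called by the permutation procedure (p = 0.00634) and not by limma (Benjamini-Hochberg adjusted p = 0.144). Rdh16f2 was also higher on HFD within each genotype without overlap, and limma called this diet difference averaged over genotypes. Rdh9 moved with diet, and neither test called it for genotype. It stood at 24.9 and 27.3 FPKM in f/f and 19.6 and 22.3 in LKO livers on CD, and at 41.9 and 52.3 in f/f and 42.5 and 45.8 in LKO livers on HFD. Both tests called the rise, with log2 fold changes of 0.87 (SE 0.12) in f/f and 1.08 (SE 0.12) in LKO livers and limma Benjamini-Hochberg adjusted p of 0.038 and 0.0184. Leaving out 1 library at a time, limma lost the f/f call in 8 of 8 fits (adjusted p 0.0547 to 0.194) and the LKO call in 4 of 8, those without an LKO library (up to 0.101).

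Summed over Rdh16, Rdh9 and Rdh16f2, the FPKM on HFD was 143 and 163 in f/f livers and 139 and 153 in LKO livers. The ratio of the LKO to the f/f mean of this sum was 0.953 on HFD and 0.87 on CD, where Rdh16 alone gave 1.83 and 1.22. Over Rdh16 and Rdh16f2 alone the ratios were 0.961 and 0.89, and over Rdh16 and Rdh9 they were 1.26 and 1.03. These sums depend on the unit, since FPKM is divided by the length of the transcript (3207 bases for Rdh16, 2698 for Rdh9 and 1265 for Rdh16f2 by their annotated coding transcripts). With each FPKM multiplied by that length, a choice made after seeing the data, the ratio over the 3 genes was 1.09 on HFD and 0.944 on CD. Weighted in the same way it was 1.2 and 1.00 over Rdh16 and Rdh16f2, and 1.30 and 1.05 over Rdh16 and Rdh9. Across the 8 libraries Rdh16 and Rdh16f2 had a Pearson r of −0.59 (Spearman rho −0.71), while Rdh16 and Rdh9 had an r of 0.14. The Pearson r of Rdh16 and Rdh16f2 was −0.51 without the 2 libraries farthest from the median of Rdh16.

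**Figure D4:**
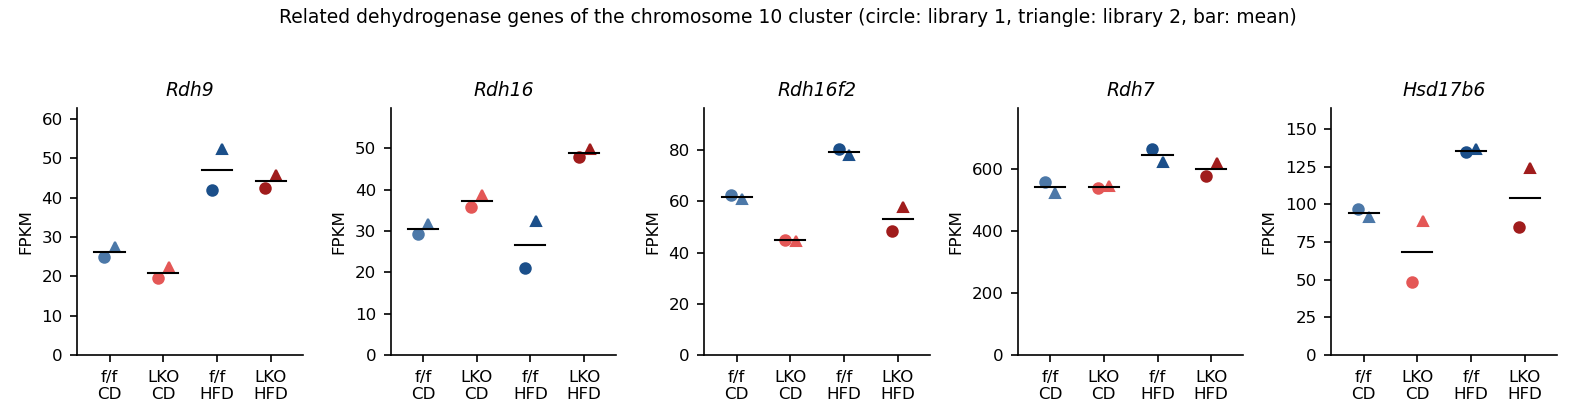
FPKM (vertical axis, from 0) of 5 expressed dehydrogenase genes of the chromosome 10 cluster in the 4 groups, with 1 point for each library and a bar at the mean of 2 libraries. Rdh16 is higher and Rdh16f2 lower in LKO than in f/f libraries on both diets, and Rdh9 is higher on HFD, at 41.9 to 52.3 FPKM against 19.6 to 27.3 on CD.

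Because Rdh16 and Cyp26a1 were the genes called between genotypes, their promoter windows were read from RefSeq (GRCm38.p6, 250 bases before to 50 after the start of transcription). All 9 genes were matched, with 15 windows in all. Each window was searched on both strands for the core hexamer AGGTCA or GGGTCA or AGTTCA or GGTTCA, which nuclear receptors bind, for direct repeats of it with 1, 2 or 5 bases between the copies, and for the RORE, the element of the ROR receptors. The core hexamer lay in 9 of the 15 windows and in 43.7% of 32851 windows of the genome. The window of Rdh16 (chr10:127800903-127801202, plus strand) holds 1 core hexamer, in capitals, read on the minus strand at positions −238 to −233 from the start.
Rdh16: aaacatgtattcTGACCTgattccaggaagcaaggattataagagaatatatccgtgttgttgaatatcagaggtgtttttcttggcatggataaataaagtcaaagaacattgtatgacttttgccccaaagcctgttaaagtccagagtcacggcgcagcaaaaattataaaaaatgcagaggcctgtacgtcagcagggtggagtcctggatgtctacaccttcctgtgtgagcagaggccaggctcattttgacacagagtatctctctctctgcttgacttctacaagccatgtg

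The RORE was found in 0.384% of all windows and in none of the 15. That says only that these letters are absent from these windows.

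Rdh7 encodes another dehydrogenase of the cluster, which also acts on retinol (chr10:127884028-127888817, minus strand). Its FPKM was 556 and 523 in f/f livers on CD, 538 and 543 in LKO livers on CD, 663 and 623 in f/f livers on HFD, and 578 and 618 in LKO livers on HFD. Every HFD library was above every CD library, and the genotypes overlapped on CD, while on HFD the f/f libraries were the higher pair in FPKM but not after normalization. Averaged over genotypes, Rdh7 was higher on HFD by 0.34 on the log2 scale (SE 0.06, limma Benjamini-Hochberg adjusted p = 0.016, higher in 4 of 4 HFD libraries). Without normalization the difference was 0.20 with an adjusted p of 0.0598, and the means of the deposited FPKM differed by 1.19 times in f/f and 1.11 times in LKO livers. The limma call was lost in 4 of 8 fits that each left out 1 library (the second f/f library on CD, the first f/f library on HFD and each LKO library on HFD), with adjusted p of at most 0.0613. Neither test called a genotype difference, at −0.01 (SE 0.08) on HFD and 0.02 (SE 0.08) on CD.

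Rdh11 encodes a microsomal reductase that turns retinaldehyde back into retinol and also reduces other aldehydes (chr12:79174337-79192293, minus strand). Its FPKM was 9.99 and 10.2 in f/f livers on CD, 11.2 and 10.3 in LKO livers on CD, 4.60 and 3.93 in f/f livers on HFD, and 6.26 and 4.20 in LKO livers on HFD. All 4 HFD libraries were far below all 4 CD libraries, with the first LKO library on HFD the highest of the low set. The mean FPKM fell by 57.8% in f/f and fell by 51.5% in LKO livers. It was the 1 gene of the 9 called by both tests in both genotypes, with log2 fold changes of −1.04 and −0.91 (SE 0.16 each) and limma Benjamini-Hochberg adjusted p of 0.0411 and 0.0382.

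The permutation procedure gave p = 0.000359 for Rdh11 in f/f and 0.00481 in LKO livers. Averaged over genotypes, the log2 fold change was −0.97 (SE 0.11, limma Benjamini-Hochberg adjusted p = 0.00677), and this call was kept without each library in turn, with adjusted p of at most 0.0372. Within 1 genotype the limma calls were close to the threshold. In f/f livers the adjusted p was 0.0293 to 0.212 without each library in turn, under the threshold only without the first or the second LKO library on HFD, and in LKO livers it was 0.0357 to 0.155, under the threshold only without the first LKO library on HFD. For genotype neither test called Rdh11, at 0.23 (SE 0.16) on HFD and 0.10 (SE 0.16) on CD, and the interaction was 0.13 (SE 0.23).

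Dhrs3 encodes a retinaldehyde reductase that limits the formation of retinoic acid and is itself induced by it (chr4:144892827-144928209, plus strand). Its FPKM was 75.1 and 70.5 in f/f livers on CD, 84.0 and 72.8 in LKO livers on CD, 94.7 and 76.6 in f/f livers on HFD, and 88.8 and 86.2 in LKO livers on HFD. The HFD libraries lay above the CD libraries within each genotype but overlapped over both. Neither test called it, with log2 fold changes for diet of 0.29 in f/f and 0.24 in LKO livers (SE 0.12 each) and for genotype of 0.06 on HFD and 0.11 on CD. In the fit averaged over genotypes the diet difference was 0.27 (SE 0.08), with a limma Benjamini-Hochberg adjusted p of 0.0939.

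Aldh1a1 encodes the cytosolic aldehyde dehydrogenase that oxidizes retinaldehyde to retinoic acid (chr19:20492715-20643465, plus strand, with C730002L08Rik and the pseudogene Gm6684 on the other strand within its span). Its FPKM was 723 and 680.1 in f/f livers on CD, 699.5 and 491 in LKO livers on CD, 652 and 678 in f/f livers on HFD, and 716 and 807 in LKO livers on HFD. The LKO libraries on CD were far apart, and the second of them was the lowest of all 8. In LKO livers the log2 fold change of HFD against CD was 0.62 (SE 0.14), called by the permutation procedure (p = 0.0129) and not by limma (Benjamini-Hochberg adjusted p = 0.0692). It was 0.42 to 0.81 without each library in turn, and without normalization it was 0.38 and the permutation procedure no longer called it (p = 0.0843). In f/f livers it was 0.06 (SE 0.14) and turned to −0.076 without normalization. The interaction was 0.56 (SE 0.20), with an unadjusted limma p of 0.0273 and an adjusted p of 0.572.

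Aldh1a7 encodes a close relative of Aldh1a1 that is less well characterized as a retinaldehyde dehydrogenase (chr19:20692953-20727562, minus strand). Its FPKM was 88.6 and 91.3 in f/f livers on CD, 103 and 92.0 in LKO livers on CD, 60.5 and 68.1 in f/f livers on HFD, and 85.3 and 73.0 in LKO livers on HFD. The f/f libraries on HFD were the lowest pair, below every other library. The f/f mean fell by 28.5%, with a log2 fold change of −0.46 (SE 0.11), called by the permutation procedure (p = 0.0094) and not by limma (Benjamini-Hochberg adjusted p = 0.0982). In LKO livers it was −0.21 (SE 0.11), which neither test called, and the interaction of 0.26 (SE 0.16) had a limma adjusted p of 0.678. Averaged over genotypes, limma called the fall of 0.34 (log2, SE 0.08, Benjamini-Hochberg adjusted p = 0.0448), but the call was lost in all 8 fits that each left out 1 library, with adjusted p of 0.0616 to 0.132. On HFD the genotype difference was 0.34 (SE 0.11), higher in 2 of 2 LKO libraries, with a limma adjusted p of 0.391 and p = 0.0529 in the permutation procedure.

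The coding sequences of Aldh1a1 and Aldh1a7 share 91.6% of their bases, with a longest identical run of 100, so reads could be divided between them. Aldh1a1 was the more abundant in every library. The sum of the pair was 811 and 771 FPKM in f/f and 802 and 583 in LKO livers on CD, and 712 and 746 in f/f and 801 and 880.4 in LKO livers on HFD. Their ratio of LKO to f/f means was 1.15 on HFD and 0.875 on CD. Over the 8 libraries the pair had a Pearson r of −0.28. The second RefSeq window of Aldh1a1 (chr19:20601718-20602017, plus strand) and the window of Aldh1a7 (chr19:20727507-20727806, minus strand) have the same base at 59% of their 300 positions, and they are shown to let the pair be compared. In capitals is the core hexamer on the minus strand, which lies at positions −49 to −44 from the start in both.
Aldh1a1: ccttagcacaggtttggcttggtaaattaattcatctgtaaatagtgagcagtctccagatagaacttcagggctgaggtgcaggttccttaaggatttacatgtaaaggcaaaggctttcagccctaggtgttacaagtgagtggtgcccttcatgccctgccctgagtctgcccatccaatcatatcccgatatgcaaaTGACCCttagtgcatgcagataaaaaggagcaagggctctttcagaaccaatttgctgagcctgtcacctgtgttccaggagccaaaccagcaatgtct
Aldh1a7: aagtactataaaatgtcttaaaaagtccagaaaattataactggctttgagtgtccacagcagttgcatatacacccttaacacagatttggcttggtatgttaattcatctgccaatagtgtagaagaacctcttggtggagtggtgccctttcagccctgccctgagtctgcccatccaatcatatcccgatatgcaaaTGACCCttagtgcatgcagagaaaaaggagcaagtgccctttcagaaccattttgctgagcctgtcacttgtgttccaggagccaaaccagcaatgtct

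Cyp26a1 encodes the cytochrome P450 that hydroxylates retinoic acid for clearance (chr19:37697798-37701536, plus strand). Its FPKM was 2.36 and 1.64 in f/f livers on CD, 1.93 and 1.29 in LKO livers on CD, 3.52 and 2.36 in f/f livers on HFD, and 1.57 and 1.27 in LKO livers on HFD. The first f/f library on HFD was the highest, and the second was level with the first f/f library on CD at 2.36 FPKM. The LKO libraries on HFD lay below every f/f library, narrowly so for the first (1.57 against 1.64 FPKM), whereas the genotypes overlapped on CD. The LKO mean on HFD was 0.481 times the f/f mean. The log2 fold change of −0.71 (SE 0.20) was called by the permutation procedure (p = 0.00806) and not by limma (Benjamini-Hochberg adjusted p = 0.329), and it was −0.92 to −0.51 without each library in turn. Adding 0.1 to the FPKM in place of 1 gave −1.01.

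On CD the log2 fold change of Cyp26a1 was −0.23 (SE 0.20), and averaged over diets it was −0.47 (SE 0.14, limma adjusted p = 0.226). The interaction of −0.48 (SE 0.28) had a limma adjusted p of 0.677, so the genotype difference was not shown to depend on diet. HFD against CD gave 0.39 in f/f and −0.09 in LKO livers (SE 0.20 each), which neither test called. Over the 8 libraries Cyp26a1 and Rdh16 ran in opposite directions, with a Pearson r of −0.87 (Spearman rho −0.86). The Pearson r was −0.64 without the 2 libraries farthest from the median of Rdh16. The libraries fall into 4 groups and this r is a description.

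The promoter window of Cyp26a1 (chr19:37697558-37697857, plus strand) is shown because it was the 1 window of the 15 with a direct repeat of the core hexamer spaced by 5 bases, the arrangement classically bound by RAR with RXR. The repeat, in capitals, is read on the minus strand and lies at positions −32 to −16 from the start.
Cyp26a1: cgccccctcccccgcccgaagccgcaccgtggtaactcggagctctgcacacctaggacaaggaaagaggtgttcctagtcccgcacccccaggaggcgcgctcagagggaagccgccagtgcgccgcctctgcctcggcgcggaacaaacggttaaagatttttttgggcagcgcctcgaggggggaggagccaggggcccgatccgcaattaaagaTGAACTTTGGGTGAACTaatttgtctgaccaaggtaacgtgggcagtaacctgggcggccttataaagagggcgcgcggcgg

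This repeat was present in 0.0974% of the 32851 windows. Repeats with 1 base between the copies were in 0.222% and those with 2 bases in 0.268% of all windows, and neither was found in the 15 windows. A match is a run of letters and not a measured binding site.

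The genes whose pattern was most like that of Rdh16 over the 8 libraries were Rcan2 (Pearson r 0.98), Wwtr1 (0.97), Ermp1 (0.95), Fas (0.94) and Ces2e (0.93), among 11633 genes compared. For Cyp26a1 they were Sdr9c7, a dehydrogenase (0.95), Gm26716 (0.94), 1110051M20Rik (0.94), Gm6293 (0.93) and Gsto1 (0.93). Each was picked for the height of its r over these same 8 libraries, so the r and the FPKM given here are a description and not a test. Sdr9c7 stood at 34.1 and 29.6 FPKM in f/f and 21.1 and 17.8 in LKO livers on HFD. Gm6293 was listed at 0 in all 4 LKO libraries and in 1 f/f library.

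Of the 44 further retinoid genes, 30 passed the filter and Rbp2, Rbp7, Crabp1 and Crabp2 were listed at 0 throughout. The other 10 were below 1 FPKM in every library, among them Aldh1a2, Aldh1a3, Stra6 and Cyp26c1. In the genotype comparison on HFD the permutation procedure called 1 of the 30, Rdh16f2, beside 4.62% of all genes, and limma 0, with 2 at an unadjusted p under 0.05 (9.58% of all genes). On CD it called 3, beside 5.45% of all genes, and limma 0, with 5 at an unadjusted p under 0.05 (12.3% of all genes). For diet the permutation procedure called 5 in f/f and 5 in LKO livers, beside 8.92% and 9.91% of all genes, and limma called 2 and 1, beside 1.33% and 3.02%. Averaged over genotypes limma called 8 of the 30, of which 6 were higher and 2 lower on HFD. The HFD and CD libraries did not overlap after normalization for 7 of the 30, beside 16.7% of all genes. These 7 were all among the 8 that limma called on the same values, which leaves out only Rdh16f2. The share of 8 of 30 stood beside 9.89% of all genes and the members' 3 of 9.

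On CD, the genes called were Aldh1b1, a mitochondrial aldehyde dehydrogenase (0.50, SE 0.17), Rara, the retinoic acid receptor α (0.48, SE 0.13), and Bco1, which cleaves β-carotene to retinaldehyde (−0.58, SE 0.13). These are log2 fold changes of LKO against f/f, called by the permutation procedure only. Bco1 stood at 2.23 and 2.21 FPKM in f/f and 1.13 and 1.23 in LKO livers on CD, and on HFD the genotypes overlapped. Rara was lower in the f/f libraries on CD, at 4.24 and 3.11 FPKM, than in the other 6 libraries, and its diet difference in f/f livers (0.45, SE 0.13) was called by the same procedure. Without the first LKO library on CD the value of Aldh1b1 was 0.33, and without the second f/f library on CD those of Rara were 0.30 and 0.27.

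A receptor and a plasma carrier were called for diet averaged over genotypes. Rxra, the partner of the RAR receptors, was higher on HFD by 0.27 (SE 0.04, limma adjusted p = 0.0153). Ttr, which carries Rbp4 in plasma, was called at 0.39 (SE 0.07, limma adjusted p = 0.0261), but like Rbp4 it lost its direction without normalization, at −0.011. Leaving out 1 library at a time, the limma calls averaged over genotypes were lost in 3 of 8 fits for Rxra (adjusted p up to 0.0606) and in 7 for Ttr (up to 0.106).

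Among the enzymes, Adh4, an alcohol dehydrogenase active on retinol, was higher on HFD by 0.37 (SE 0.07) and Bco2, a carotenoid oxygenase, by 0.33 (SE 0.07), with limma Benjamini-Hochberg adjusted p of 0.0288 and 0.0402 averaged over genotypes. Rdh9 and Rdh16f2 were the other enzymes called higher, at 0.97 (SE 0.09) and 0.35 (SE 0.06). Aox3, an aldehyde oxidase, was lower by 0.26 (SE 0.06, limma adjusted p = 0.0488). The calls of Adh4 and Bco2 were lost without normalization, at adjusted p of 0.0595 and 0.0593. By the permutation procedure only, Hsd17b6 was called in both genotypes (0.54 in f/f and 0.70 in LKO livers, SE 0.27 each), Cyp26b1, a relative of Cyp26a1, in f/f livers (0.58, SE 0.30), and Retsat, the retinol saturase (0.61, SE 0.19), Cyp2c39, which hydroxylates retinoic acid (1.14, SE 0.27), and Aldh1b1 (−0.49, SE 0.17) in LKO livers. Without the first LKO library on CD these values became 0.29 for Hsd17b6, 0.41 for Retsat and −0.31 for Aldh1b1. Hsd17b6 in LKO livers was 1.11 without the second LKO library on CD and 0.45 without the second on HFD, and Cyp26b1 was 0.36 without the first f/f library on CD. In f/f livers Cyp26b1 stood at 0.71 and 1.35 FPKM on CD and 1.77 and 2.27 on HFD. In LKO livers Cyp2c39 stood at 1.07 and 1.32 FPKM on CD and 4.45 and 3.06 on HFD. Both were thus measured close to the filter of 1 FPKM on CD. The limma calls averaged over genotypes were kept for Rdh9 in all 8 fits that left out 1 library and lost in 5 for Rdh16f2 (adjusted p up to 0.0688), 6 for Adh4 (up to 0.101), 7 for Bco2 (up to 0.124) and 8 for Aox3 (up to 0.133).

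**Figure D5:**
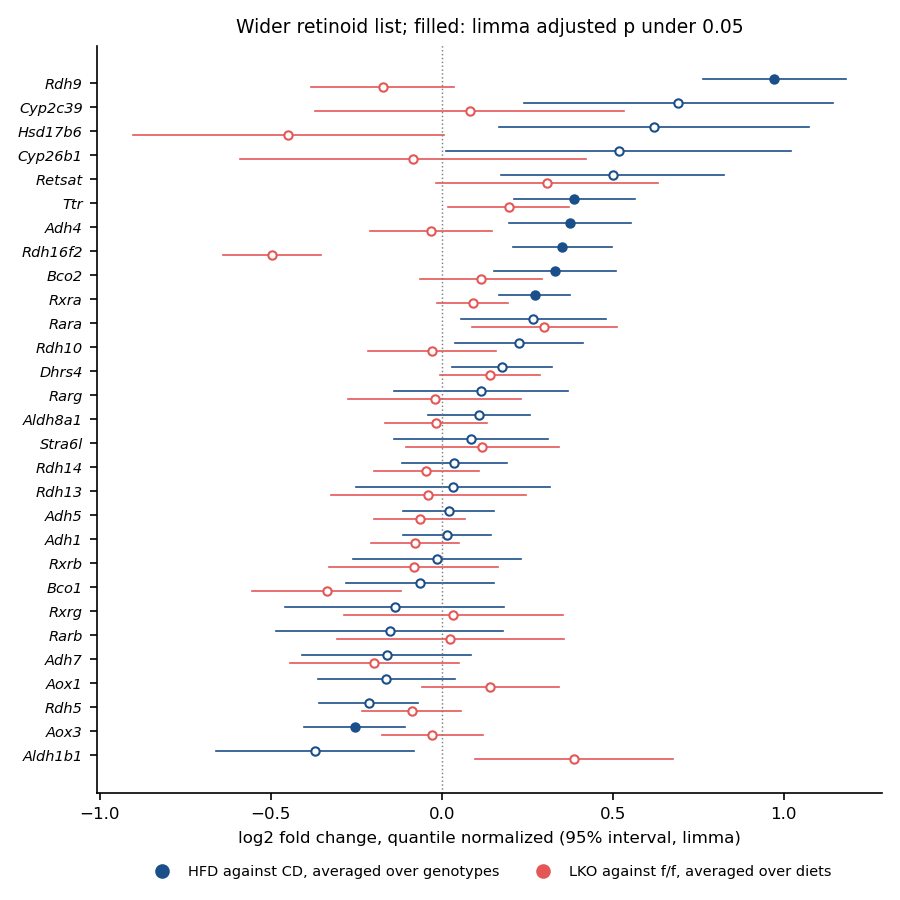
Log2 fold changes (horizontal axis, quantile-normalized log2(FPKM + 1)) with 95% intervals from limma for 29 of the 30 further retinoid genes that passed the filter, for diet averaged over genotypes (blue) and genotype averaged over diets (red), with filled points at an adjusted p under 0.05. The blue points run from Aldh1b1 at −0.37 to Rdh9 at 0.97 and 7 are filled, and none of the red points is filled.

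Markers of the liver zones were read beside the diet differences. Of 7 pericentral hepatocyte markers, limma called 3 higher and 1 lower on HFD averaged over genotypes, beside 9.89% of all genes. Within f/f livers the log2 fold change was positive for 3 of the 7 markers and negative for 4. Their summed FPKM was 4961 to 5890 over the CD libraries and 6487 to 7899 over the HFD libraries, but most of it was Cyp2e1, a cytochrome P450, at 3875 to 4680 and 5512 to 6770. Without Cyp2e1 the sum was 1087 to 1217 on CD and 917 to 1129 on HFD. Of 6 periportal markers limma called 1 higher and 2 lower, beside the same 9.89% of all genes. The sum of the 6 markers was 2644 to 2817 on CD and 1983 to 2496 on HFD. The part of these markers in the diet differences of Rdh11, Rdh7 or Aldh1a7 was not tested.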

How the data were processed

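RNA-seq was made from 8 mouse liver libraries with the TruSeq RNA v2 kit. The authors trimmed adapters (cutadapt 1.0), mapped the reads to GRCm38 by TopHat2 2.0.7 and deposited FPKM per gene from Cufflinks, whose version is not given in the sources used here. Reads were not counted per gene, so no count model was used, and depth is unknown. Genes were named through GENCODE M21 (36341 of 38283 identifiers matched).

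FPKM were changed to log2(FPKM + 1), limited to 11634 genes above 1 in at least 1 of the 8 libraries, and quantile normalized. The permutation procedure of the study's methods was rebuilt with 100 of 210 distinct regroupings (seed 11), its 2 p-values combined by Stouffer's method, with a cutoff of 0.439 on the log2 fold change. limma 3.58.1 (R 4.3.3) fitted the 4 groups with a mean-variance trend, with 4 residual and 2.80 prior degrees of freedom, and Benjamini-Hochberg adjustment over all genes tested. Both were tested on simulated data. No replicate block was used, since deviations of same-numbered libraries were only weakly correlated.

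The genes, the wider list and the marker lists were chosen with earlier results of these data known. All 9 genes were described, together with every gene of the wider list called by either test except 1, which is counted but not reported here, and the 5 genes most correlated with Rdh16 and with Cyp26a1. The alternatives were no normalization, median centring, a pseudocount of 0.1, other filters, another seed, a data-derived fold cutoff (0.48 on the log2 scale), no trend, a replicate block, the 4 libraries of a comparison alone, and leaving out each library in turn. Motifs were searched as exact letters in RefSeq promoter windows.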

Additional observations from a re-analysis of the deposited data

How the results depend on the processing

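Reads behind the FPKM are unknown, so counting error at the low levels of Lrat and Cyp26a1 cannot be given.

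The genes called among the 9 changed as follows. By the permutation procedure it was 1 (Lrat) in place of 0 on CD with a pseudocount of 0.1, 1 (Rdh11) in place of 2 in f/f diet with the data-derived cutoff, and 2 (Lrat and Rdh11) in place of 4 in LKO diet without normalization or with median centring, and with a pseudocount of 0.1 Rdh16 took the place of Rbp4 among these 4. By limma, diet within each genotype gave 2 (Rdh11 and Rdh7) with FPKM above 1 in all libraries, and 0 with no filter, no trend or the 4 libraries alone. Diet averaged over genotypes gave 2 in place of 3 without normalization (Rdh7 lost) and without a filter or the trend (Aldh1a7 lost), and 4 with FPKM above 1 in all libraries (Rbp4 gained). Without each library in turn, limma gave 0 to 1 for diet in f/f, diet in LKO, genotype on HFD and genotype averaged over diets, and 1 to 3 for diet averaged over genotypes.

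Deviations of same-numbered libraries were weakly correlated, at 0.09 and 0.15 in the genotype comparisons and 0.06 and 0.09 in the diet comparisons. Leaving out genes at 0 in any library, these values were 0.02 and 0.02, and 0.01 and 0.04. With a replicate block the limma count was 0 in place of 1 for diet in f/f (adjusted p 0.0529 for Rdh11), and for diet averaged over genotypes Dhrs3 (0.0474) took the place of Aldh1a7 (0.0688).

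Of 1099 values of single genes under alternatives, 27 changed direction, 114 lost and 9 gained a limma call. Without normalization, and with median centring where a second value follows, the direction turned for Rbp4 in genotype on HFD (−0.078 and −0.071), on CD (0.0035 and 0.0097), in diet in LKO (−0.10 and −0.074), in diet in f/f (−0.020) and in diet averaged (−0.061 and −0.034), for Aldh1a1 in diet in f/f (−0.076 and −0.050), for Ttr in diet averaged (−0.011), and for Lrat on HFD (−0.0013, and −0.0024 with a pseudocount of 0.1). Leaving out each library gave ranges across 0 for Aldh1a1 diet in f/f (−0.00026 to 0.12), Aldh1a7 genotype on CD (−0.0051 to 0.16), Cyp26a1 diet in LKO (−0.26 to 0.078), Dhrs3 genotype on HFD (−0.088 to 0.21), Lrat genotype on HFD (−0.27 to 0.28), Rbp4 genotype on CD (−0.31 to 0.20), Rdh11 genotype on HFD (−0.020 to 0.48), Rdh16 diet in f/f (−0.49 to 0.12), and Rdh7 genotype on CD (−0.041 to 0.077) and on HFD (−0.057 to 0.026).

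Over all genes, limma calls for diet were 155 in f/f and 351 in LKO, 323 and 570 with FPKM above 1 in all libraries, 46 and 135 without a filter, 42 and 229 without the trend, and 34 and 223 with the block, 5 and 0 in the 4 libraries alone, and 14 to 49 and 21 to 154 without each library in turn. For diet averaged they were 1151, 704 without a filter and 374 to 816 without each library. For genotype averaged they were 12, 7 without normalization, 28 without a filter, 50 with FPKM above 1 in all libraries and 13 to 30 without each library, and on HFD 5, 24 without a filter and 4 to 21 without each library. On CD they were 2, 1 with a pseudocount of 0.1, 4 without the trend, 0 in the 4 libraries alone, 10 without a filter, 7 with FPKM above 1 in all libraries and 2 to 19 without each library. For the interaction they were 4, 2 with a pseudocount of 0.1, 19 without a filter, 0 with FPKM above 1 in all libraries and 10 to 21 without each library. By permutation 537 genes passed for genotype on HFD, 833 after adding 0.1 to the FPKM and 339 with FPKM above 1 in all libraries, and on CD 634, 992 and 404.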
